A study of Mus musculus with 18 samples.

Results

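The 10 genes described here belong to the integrated stress response and were taken by symbol from a table of 21831 genes. They are Ppp1r15a, Ppp1r15b, Eif2ak3, Atf4, Atf5, Ddit3, Trib3, Asns, Chac1 and Sesn2, and all 10 were found. RNA was sequenced from thioglycollate-elicited peritoneal macrophages that were kept in culture. Macrophages came from 6-week-old C57BL/6 mice, 3 days after an intraperitoneal dose of thioglycollate, an irritant that draws these cells into the abdominal cavity. After 4 h of attachment, the cells were exposed for 12 h to 20 µM PCN (pregnenolone 16-alpha-carbonitrile), a ligand of the nuclear receptor PXR, or to its solvent DMSO. Per the series title and design text, the question was what PXR activation does to the macrophage transcriptome. The groups were dMye_PCN and dMye_DMSO, with 6 libraries each, and FF_PCN and FF_DMSO, with 3 libraries each. By their labels, dMye cells lacked PXR in the myeloid lineage and FF cells carried floxed PXR alleles. Every group, controls included, had been elicited with thioglycollate. Which Cre drove the deletion is not given in the labels. Nor is it given whether each library had its own mouse or dish, so a p-value here reflects library-to-library spread that could be technical.

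In the integrated stress response, kinases that sense protein misfolding in the endoplasmic reticulum, lack of amino acids, heme deficiency or viral RNA phosphorylate the translation factor eIF2. General protein synthesis then falls, while a few messages with short upstream reading frames, Atf4 among them, are translated more. ATF4 and its partner CHOP switch on genes of amino acid supply, redox balance and cell death, and a phosphatase subunit that they induce, GADD34, removes the phosphate from eIF2 again. In macrophages the response is known to be linked to cholesterol loading, infection and cytokine output. The data here are messenger RNA levels. Phosphorylation of eIF2 and protein levels were not measured.

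Library totals ran from 21993687 to 30228032 counts, and levels are given in CPM, the count scaled to the library total, where 1 CPM stood for 21.99 to 30.2 counts. The lowest count of any of the 10 genes in any library was 339, for Chac1. The targeted gene Nr1i2, which encodes PXR, had 5 counts over the 12 dMye libraries and 3 over the 6 FF libraries, so neither its expression nor its loss was detectable at this depth. The Y-linked gene Ddx3y lay between 0 and 0.475 CPM in dMye libraries and between 43.7 and 62.7 CPM in FF libraries. Sex and genotype therefore cannot be told apart in any contrast of dMye with FF. All 6 macrophage markers (Adgre1, Csf1r, Cd68, Itgam, Mertk and Lyz2) had counts in every library, and Cd68 was at 2186 CPM or more. Their sum was 6020 to 6556 CPM in dMye_PCN, against 6532 to 8184 CPM in dMye_DMSO, and 7027 to 7509 CPM in FF_PCN, against 9938 to 10648 CPM in FF_DMSO. This sum mostly follows Lyz2, which ran from 2917 to 7472 CPM over all libraries. Cd68 ran from 2186 to 2597 CPM, and the other markers lay between 19.6 and 390 CPM. Libraries 5 and 6 of dMye_DMSO stood apart from each other, at PC2 scores of 22.8 and -8.68. In these bulk samples, fewer cells of a type and less RNA per cell cannot be told apart.

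Levels of the 10 genes were compared with each other in CPM per kilobase of exonic sequence (the union over all annotated transcripts), averaged over the 18 libraries. Atf4, the transcription factor at the centre of the response, was the most abundant at 264 ± 14.8 CPM per kb (SD, n = 18). The related factor gene Atf5 followed at 185 ± 10.03 and Ddit3, which encodes CHOP, at 178 ± 23.9. Trib3, which encodes a pseudokinase that restrains ATF4 and CHOP, stood at 116 ± 9.47 CPM per kb. Ppp1r15a, which encodes GADD34, stood at 86.0 ± 17.3, and Asns, which encodes asparagine synthetase, at 66.4 ± 2.58. Neighbours in this order from Atf5 down to Asns had overlapping library ranges. Ppp1r15b, which encodes CReP, the phosphatase subunit made without stress, was at 42.4 ± 3.79 CPM per kb, and Sesn2, which encodes the nutrient sensor sestrin 2, was at 37.7 ± 3.70, again with overlapping ranges. The least abundant were Chac1, which encodes an enzyme that breaks down glutathione, at 10.97 ± 1.59, and Eif2ak3, which encodes the eIF2 kinase PERK, at 4.37 ± 0.310. The ranges of Chac1 and Eif2ak3 lay apart from each other and from those above them. Around these means Ppp1r15a had the widest spread for its level and Asns the narrowest.

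Positions are those of the GENCODE M21 annotation of GRCm38. Ppp1r15a spans chr7:45522916-45526268 on the minus strand with 2 exon blocks, and Atf4 spans chr15:80255184-80257541 on the plus strand as a single block. Blocks and exonic lengths are unions of the exons of all annotated transcripts, so a single block does not mean a gene without introns. Ddit3 lies at chr10:127290774-127296288 and shares 68 exonic bases with Mars on the opposite strand, 3.97% of its exonic length. Atf5 (chr7:44812256-44816658) shares 82 bases with Il4i1 and Nup62, or 4.11%. The gene models Gm26616 and Gm43292 cover 11.44% of Ppp1r15b and 8.05% of Eif2ak3. Whether reads were counted by strand is not given in the sources used here, so reads of these opposite-strand pairs cannot be told apart. The symbol Ddit3 also belongs to a second gene model at the same place.

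Promoter sequences from RefSeq (GRCm38.p6, 250 bases before and 50 after an annotated start site) were found for 9 of the 10 genes, in 10 windows. The 3 motifs were searched on both strands, and no match overlapped another. They were TGATGNAA, the C/EBP-ATF response element (CARE) that ATF4 binds with C/EBP partners, TGACGTCA, the cyclic AMP response element (CRE), and the endoplasmic reticulum stress element (ERSE) that ATF6 uses, which is CCAAT and CCACG with 9 bases of any kind between them. A CARE was present in the windows of Trib3, Asns and Chac1, against 3.97% of all 32851 windows of that length. The CRE was present in the window of Ppp1r15a, against 1.79% of all windows, and the ERSE in 0 of the 10 windows, against 0.119%. The 4 windows with a match are printed 5′ to 3′ because they set Ppp1r15a, the gene of the 10 with the largest fold change for PCN, beside 3 genes that share a motif. Capitals mark the match.
Ppp1r15a (chr7:45526219-45526518, minus strand): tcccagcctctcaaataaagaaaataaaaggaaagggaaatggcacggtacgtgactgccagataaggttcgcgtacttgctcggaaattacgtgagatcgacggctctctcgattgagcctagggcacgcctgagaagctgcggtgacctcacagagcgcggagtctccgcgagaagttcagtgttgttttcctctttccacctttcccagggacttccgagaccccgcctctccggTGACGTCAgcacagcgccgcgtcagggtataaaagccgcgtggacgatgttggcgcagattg
Trib3 (chr2:152344011-152344310, minus strand): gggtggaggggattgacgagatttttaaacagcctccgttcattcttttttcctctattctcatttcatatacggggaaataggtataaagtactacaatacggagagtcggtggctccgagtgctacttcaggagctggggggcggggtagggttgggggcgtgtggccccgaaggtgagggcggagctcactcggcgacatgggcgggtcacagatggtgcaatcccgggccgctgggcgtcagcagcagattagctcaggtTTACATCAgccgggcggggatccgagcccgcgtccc
Asns (chr6:7693160-7693459, minus strand): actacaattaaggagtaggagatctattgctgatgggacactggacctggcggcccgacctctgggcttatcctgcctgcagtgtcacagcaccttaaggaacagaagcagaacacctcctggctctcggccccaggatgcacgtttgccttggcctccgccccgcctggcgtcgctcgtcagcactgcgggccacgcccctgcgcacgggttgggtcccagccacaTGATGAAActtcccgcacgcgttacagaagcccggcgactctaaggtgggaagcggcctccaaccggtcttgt
Chac1 (chr2:119350992-119351291, plus strand): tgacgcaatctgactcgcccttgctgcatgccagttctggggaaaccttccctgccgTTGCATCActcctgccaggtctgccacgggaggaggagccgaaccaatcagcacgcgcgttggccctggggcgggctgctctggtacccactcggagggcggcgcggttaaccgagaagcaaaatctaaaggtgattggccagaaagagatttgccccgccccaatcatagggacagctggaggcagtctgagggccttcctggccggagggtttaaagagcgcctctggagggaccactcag
Counted from the start site, the CRE of Ppp1r15a begins at base -12. The CARE reads on the strand opposite to the printed one at base 15 of Trib3 and at base -193 of Chac1. In Asns it reads on the printed strand, at base -23. A match is a string of letters and not a measured binding site.

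The transcript leaders of the 10 genes were read from GENCODE M21, with 1 transcript per gene. An upstream ATG was present in 8 of 10 leaders, against 51.9% of 21539 protein-coding genes. Ppp1r15a had 7 upstream ATGs in a leader of 764 bases, Atf4 had 3 in 594, Eif2ak3 3 in 211, Ppp1r15b 3 in 604, Atf5 2 in 373, Ddit3 2 in 186, and Asns and Sesn2 1 each. The leaders of Trib3 and Chac1 had 0. An upstream reading frame that ran over the main start out of frame was present in 4 genes, Ppp1r15a, Atf4, Atf5 and Eif2ak3, against 17.0% of all leaders.

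PCN raised 4 of the 10 genes in FF macrophages. Ppp1r15a rose 1.82-fold, Ddit3 1.42-fold, Trib3 1.28-fold and Atf5 1.16-fold (edgeR's quasi-likelihood test, Benjamini-Hochberg adjusted p under 0.05 over 13409 genes). Over all genes tested, 13.8% were called, 6.82% higher and 6.98% lower. None of the 10 was called lower by edgeR, by DESeq2 or by limma-voom, or at an unadjusted p under 0.05. The median log2 fold change was 0.19 over the 10 genes and 0.0091 over all genes tested. The 3 FF_PCN libraries all lay above the 3 FF_DMSO libraries for 6 of the 10 genes, against 15.3% of all genes, and all lay below them for 1, Asns, against 18.2%. Both directions together came to 7 of the 10 genes, against 33.4% of all genes.

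Among the regulators of eIF2 itself, the inducible phosphatase subunit stood out from its constitutive counterpart and the kinase. Ppp1r15a was at 329, 309.7 and 342 CPM in FF_PCN, against 182, 188 and 178 CPM in FF_DMSO. The lowest PCN library lay far above the highest DMSO library, and the log2 fold change was 0.86 (SE 0.057, edgeR adjusted p = 3.6e-09). Ppp1r15b was at 252, 259 and 251 CPM in FF_PCN, against 253, 259.8 and 264 CPM in FF_DMSO (edgeR log2 fold change -0.0031, 95% interval -0.15 to 0.15, adjusted p = 0.99). Eif2ak3 was at 27.9, 23.9 and 23.3 CPM in FF_PCN, against 28.9, 25.9 and 28.8 CPM in FF_DMSO (edgeR log2 fold change -0.13, 95% interval -0.30 to 0.04, adjusted p = 0.33). For both of these genes the libraries of the 2 agents overlapped.

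Of the transcription factor genes, Ddit3 had the largest fold change and Atf4 the smallest. CHOP, the product of Ddit3, pairs with other C/EBP family members and is known for its part in stress-induced cell death. Ddit3 was at 336, 330.1 and 342 CPM in FF_PCN, against 237, 260.2 and 225 CPM in FF_DMSO. The groups did not overlap, and the DMSO libraries were more spread than the PCN libraries (log2 fold change 0.51, SE 0.078, edgeR adjusted p = 0.0001). Atf5 was at 399.6, 405 and 398 CPM in FF_PCN, against 356, 349 and 352 CPM in FF_DMSO. This was a small shift between tight groups (log2 fold change 0.21, SE 0.047, edgeR adjusted p = 0.0041). Atf4 was at 689, 641 and 672 CPM in FF_PCN, against 603, 587 and 591 CPM in FF_DMSO. Its groups did not overlap, but its log2 fold change of 0.19 (95% interval 0.05 to 0.33) had an edgeR adjusted p of 0.058. Atf4 was called in DESeq2 (adjusted p = 0.037), in a fit on the 6 FF libraries alone (adjusted p = 0.0048), and in edgeR without library dMye_DMSO 5 (adjusted p = 0.0097) or dMye_DMSO 6 (adjusted p = 0.0495). In other runs it moved further from the threshold, with an edgeR adjusted p of up to 0.165 without single libraries. Library dMye_DMSO 5 had the highest Atf4 level of all 18 and belongs to neither FF group.

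The effector genes were split. Trib3 was at 284, 267 and 271 CPM in FF_PCN, against 214, 223 and 214 CPM in FF_DMSO, without overlap (log2 fold change 0.36, SE 0.054, edgeR adjusted p = 8.2e-05). Sesn2, whose product restrains mTORC1 when leucine is short, was at 147.8, 159.7 and 149.5 CPM in FF_PCN, against 134, 135 and 139 CPM in FF_DMSO. These groups did not overlap either, with a log2 fold change of 0.19 (95% interval 0.05 to 0.32) that missed the threshold (edgeR adjusted p = 0.055). It passed in edgeR on the 6 FF libraries alone (adjusted p = 0.017) and without dMye_DMSO 5 (adjusted p = 0.042) or dMye_PCN 5 (adjusted p = 0.036). In other runs Sesn2 moved further from the threshold, with an edgeR adjusted p of up to 0.284 without single libraries. Chac1 was at 17.1, 14.5 and 16.2 CPM in FF_PCN, against 13.7, 14.5 and 15.9 CPM in FF_DMSO, with overlap (edgeR log2 fold change 0.14, 95% interval -0.07 to 0.35, adjusted p = 0.42). Asns was at 178, 186 and 180.4 CPM in FF_PCN, against 188, 193 and 189 CPM in FF_DMSO. Its groups did not overlap, and it did not pass the test (edgeR log2 fold change -0.05, 95% interval -0.16 to 0.07, adjusted p = 0.67). Of the 3 genes with a CARE in the printed windows, Trib3 was called and Asns and Chac1 were not.

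**Figure D1:**
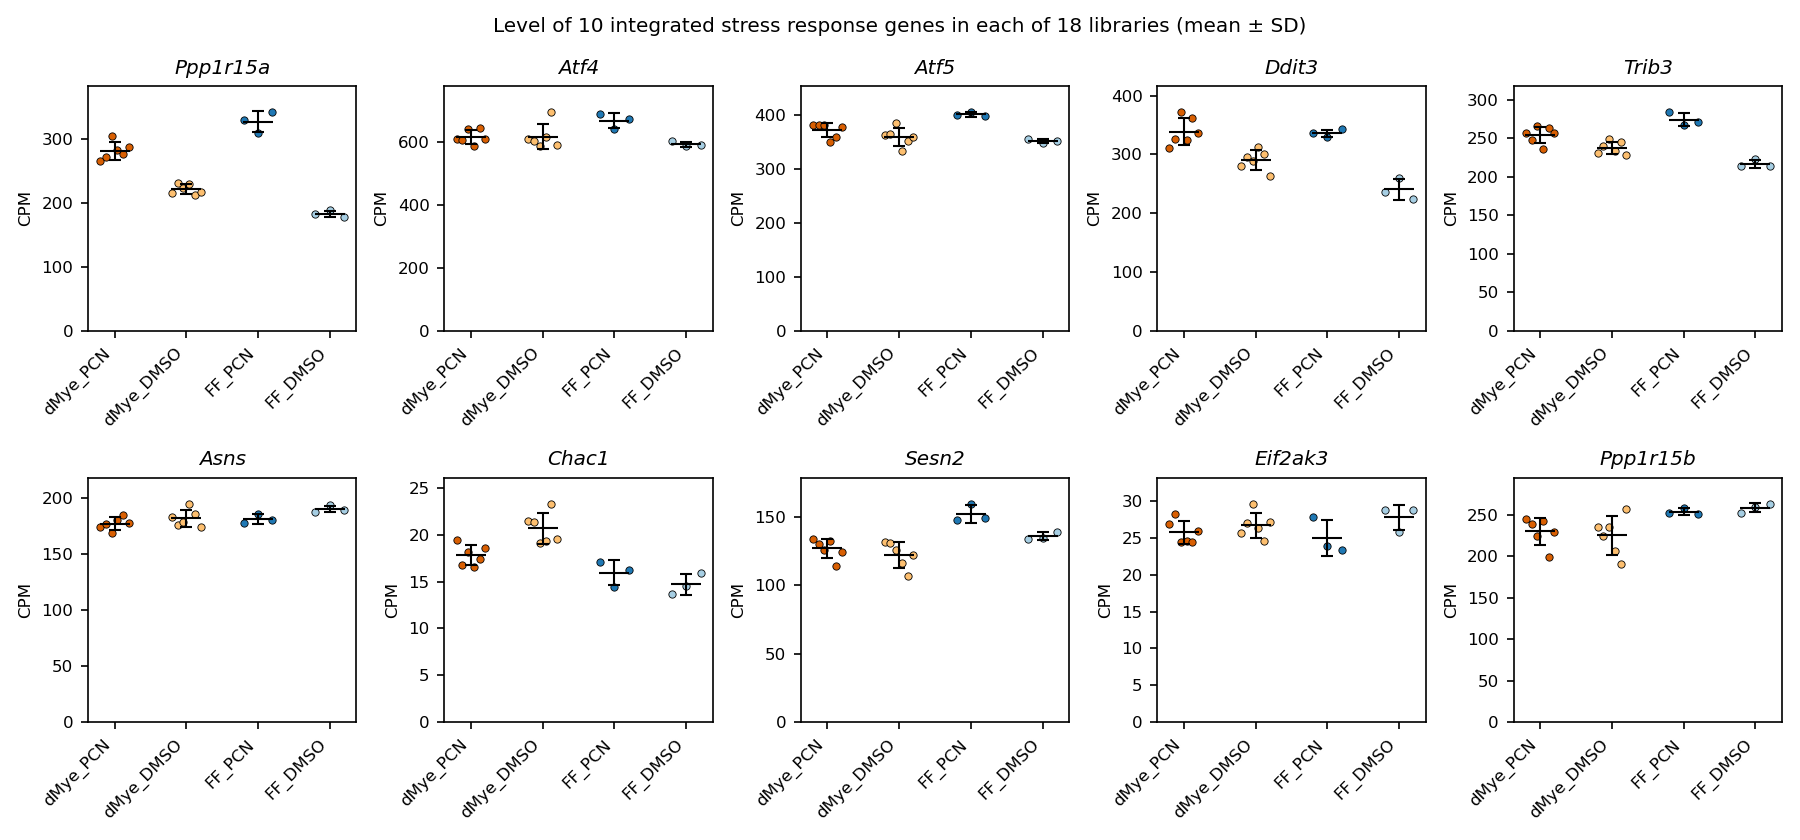
Level of each of the 10 genes in CPM (vertical axes, from 0) in the 18 libraries, by group (horizontal axes), with points for libraries and bars for mean ± SD (n = 6 for dMye groups, n = 3 for FF groups). Ppp1r15a lies at 309.7 to 342 CPM in FF_PCN and at 178 to 188 CPM in FF_DMSO, with the dMye groups between, and Atf4 in dMye_DMSO has 1 library at 695 CPM.

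Cell markers and the mitochondrial share also moved with PCN in FF. Of the 6 macrophage markers 5 were called lower. Of 6 B cell markers 4 were called lower, and their sum was 7.29 to 10.99 CPM in FF_PCN, against 16.0 to 21.4 CPM in FF_DMSO. The sum of 6 neutrophil markers was 20.3 to 23.4 CPM in FF_PCN, against 31.8 to 35.4 CPM in FF_DMSO, with Ly6g at 0 in all libraries. Of the 4 neutrophil markers tested 1 was called lower. Mmp8 made up most of the sum, at 8.89 to 30.4 CPM over all libraries, and the others lay between 0 and 3.05 CPM. Mitochondrial transcripts made up 1.46 to 1.72% of counts in FF_PCN, against 1.81 to 2.02% in FF_DMSO. The part of these measures in the changes of the 10 genes was not tested.

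In dMye macrophages PCN raised 2 of the 10 genes, Ppp1r15a 1.27-fold and Ddit3 1.17-fold, where 2.08% of all genes tested were called, 0.94% higher and 1.14% lower (edgeR). None was called lower by edgeR or limma-voom. At an unadjusted p under 0.05, 3 genes were higher and 1, Chac1, was lower, and DESeq2 called Chac1 lower. The median log2 fold change was 0.04 over the 10 genes and -0.0098 over all genes tested. Ppp1r15a alone of the 10 had all 6 dMye_PCN libraries above all 6 dMye_DMSO libraries, against 1.03% of all genes and 2.33% in either direction.

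Ppp1r15a ran from 266 to 304 CPM in dMye_PCN with a median of 279.5, against 212 to 231 CPM in dMye_DMSO with a median of 220.5. The groups lay clear of each other (log2 fold change 0.34, SE 0.040, edgeR adjusted p = 5.2e-05), and the call held in each alternative run. Ddit3 ran from 311 to 372 CPM in dMye_PCN with a median of 331, against 264 to 313 CPM in dMye_DMSO with a median of 292. In 5 of the 6 PCN libraries the level exceeded the highest DMSO library (log2 fold change 0.22, SE 0.055, edgeR adjusted p = 0.036). This call was lost in 8 of 18 fits that each left out 1 library, with the highest adjusted p, 0.109, without dMye_PCN 3. The libraries concerned were dMye_DMSO 1, 2, 3 and 6 and dMye_PCN 3, 4, 5 and 6. It was also lost under upper-quartile scaling (adjusted p = 0.062), in an edgeR fit on the 12 dMye libraries alone (adjusted p = 0.081), and without dMye_DMSO 5 and 6 together (adjusted p = 0.059).

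The other 8 genes did not pass the test in dMye. Trib3 ran from 237 to 266 CPM in dMye_PCN with a median of 256, against 228 to 249 CPM in dMye_DMSO with a median of 237. These ranges overlapped, and the edgeR log2 fold change was 0.10 (95% interval 0.02 to 0.18, adjusted p = 0.22). Atf4 ran from 586 to 645 CPM in dMye_PCN with a median of 609, against 589 to 695 CPM in dMye_DMSO with a median of 607 (edgeR log2 fold change -0.0061, 95% interval -0.10 to 0.09, adjusted p = 0.97). Atf5 ran from 351 to 382 CPM in dMye_PCN with a median of 379, against 333 to 384 CPM in dMye_DMSO with a median of 362 (edgeR log2 fold change 0.05, 95% interval -0.02 to 0.12, adjusted p = 0.55). The PCN range of Atf5 lay inside its DMSO range, and that of Atf4 passed its DMSO range only at the low end.

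Chac1 had the lowest fold change of the 10 in dMye. It ran from 16.6 to 19.4 CPM in dMye_PCN with a median of 17.8, against 19.1 to 23.3 CPM in dMye_DMSO with a median of 20.5. In 5 of the 6 PCN libraries the level was below every DMSO library (edgeR log2 fold change -0.22, 95% interval -0.36 to -0.07, adjusted p = 0.11, and adjusted p = 0.049 in DESeq2). Sesn2 ran from 114 to 134 CPM in dMye_PCN, against 107 to 132 CPM in dMye_DMSO, and Ppp1r15b from 199.7 to 245 CPM in dMye_PCN, against 191 to 257 CPM in dMye_DMSO. Asns ran from 169 to 185 CPM in dMye_PCN, against 174 to 195 CPM in dMye_DMSO, and Eif2ak3 from 24.5 to 28.3 CPM in dMye_PCN, against 24.7 to 29.7 CPM in dMye_DMSO. For these 4 genes the groups overlapped and the edgeR log2 fold changes lay between -0.05 and 0.05, with adjusted p of 0.61 or above. The macrophage marker sum had a median of 6212 CPM in dMye_PCN, against 6887 CPM in dMye_DMSO, with 1 of 6 markers called lower, and the B cell marker sums overlapped, at 5.06 to 8.51 CPM in dMye_PCN and 5.30 to 7.46 CPM in dMye_DMSO. The part of these markers was not tested.

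The PCN effect differed between the genotypes for 2 of the 10 genes. The interaction term (dMye effect minus FF effect) was -0.52 for Ppp1r15a (SE 0.069, edgeR adjusted p = 0.00044) and -0.26 for Trib3 (SE 0.067, edgeR adjusted p = 0.047), where 1.42% of all genes were called, 0.671% in that direction and 0.746% in the other. None was called in the other direction by edgeR, DESeq2 or limma-voom, or at an unadjusted p under 0.05. Ppp1r15a in the PCN libraries stood at 1.202 to 1.37 times the DMSO mean in dMye, and at 1.69 to 1.87 times the DMSO mean in FF. The lowest FF ratio was thus above the highest dMye ratio, though such ratios leave out the spread of the DMSO libraries. Trib3 in the PCN libraries stood at 0.997 to 1.119 times the DMSO mean in dMye, and at 1.23 to 1.31 times in FF. The Trib3 call was lost in 14 of 18 fits without 1 library, namely each of the 6 FF libraries, dMye_DMSO 2, 3, 4 and 5, and dMye_PCN 1, 2, 4 and 6 (adjusted p up to 0.144), and under upper-quartile scaling, without a filter and in limma-voom (adjusted p = 0.076, 0.114 and 0.051).

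The remaining 8 genes did not pass the interaction test. Ddit3 in the PCN libraries stood at 1.07 to 1.28 times the DMSO mean in dMye, and at 1.37 to 1.42 times in FF (interaction -0.28, 95% interval -0.48 to -0.09, edgeR adjusted p = 0.15). These ratios did not overlap either, but they leave out the spread of the DMSO libraries. The interaction was -0.36 for Chac1 (95% interval -0.61 to -0.10, edgeR adjusted p = 0.17), -0.20 for Atf4 (95% interval -0.37 to -0.03, edgeR adjusted p = 0.28) and -0.16 for Atf5 (95% interval -0.28 to -0.04, edgeR adjusted p = 0.19). It was negative for 7 of the 10 genes, with a median of -0.18 over the 10 and -0.012 over all genes tested. For Asns, Eif2ak3 and Ppp1r15b it was 0.0049, 0.08 and 0.03, with 95% intervals that included 0.

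**Figure D2:**
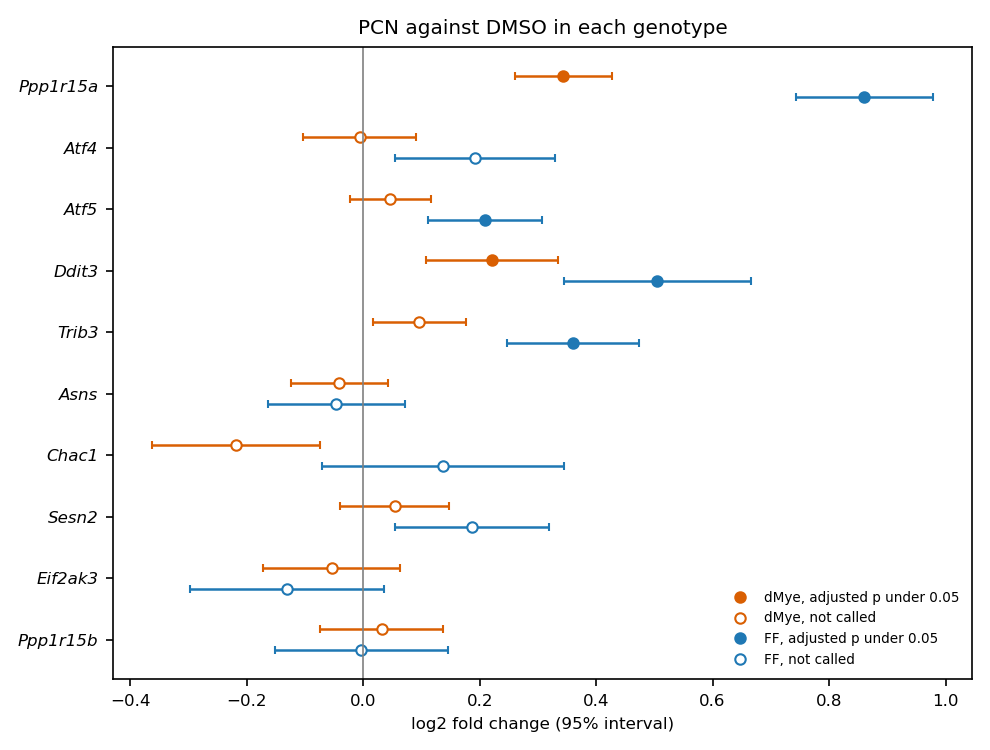
Log2 fold change of PCN against DMSO (horizontal axis) for the 10 genes in dMye (orange) and FF (blue), with 95% intervals from the edgeR fit and filled points for an adjusted p under 0.05. The intervals of Ppp1r15a lie apart, at 0.26 to 0.43 in dMye and 0.74 to 0.98 in FF.

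Under DMSO, 5 of the 10 genes differed between dMye and FF macrophages, where 21.8% of all genes were called, 13.9% higher and 7.85% lower (edgeR). Higher in dMye were Chac1 1.38-fold, Ppp1r15a 1.19-fold and Ddit3 1.19-fold, and lower were Sesn2 and Ppp1r15b. The median log2 fold change was 0.02 over the 10 genes and 0.02 over all genes tested. All 6 dMye_DMSO libraries lay above all 3 FF_DMSO libraries for 4 of the 10 genes, against 17.3% of all genes, and below them for 1, Sesn2, against 6.26%, or 23.6% in either direction. The difference between the genotypes is also a difference between sexes, and markers of other cells differed too. The sum of 5 mesothelial markers was 89.7 to 102 CPM in dMye_DMSO, against 15.2 to 17.2 CPM in FF_DMSO, and that of 5 fibroblast markers was 531 to 707 CPM in dMye_DMSO, against 168 to 173 CPM in FF_DMSO. All 10 of these markers were called higher in dMye under both agents. Under DMSO 5 of 6 B cell markers were called lower in dMye, with sums of 5.30 to 7.46 CPM in dMye_DMSO, against 16.0 to 21.4 CPM in FF_DMSO. Of the 4 T cell markers 2 were called lower, with sums of 0.977 to 2.09 CPM in dMye_DMSO, against 2.71 to 3.48 CPM in FF_DMSO. Of the 4 neutrophil markers tested 2 were called lower, with sums over all 6 of 14.9 to 17.0 CPM in dMye_DMSO, against 31.8 to 35.4 CPM in FF_DMSO. Of the 6 macrophage markers 1 was higher and 2 were lower. Under PCN 2 B cell, 1 T cell, 1 neutrophil and 1 macrophage marker were lower in dMye, and 4 macrophage markers and 1 of 3 mast cell markers were higher. The part of these markers in the results was not tested.

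Chac1 ran from 19.1 to 23.3 CPM in dMye_DMSO, against 13.7 to 15.9 CPM in FF_DMSO, without overlap (log2 fold change 0.47, SE 0.087, edgeR adjusted p = 0.00036). Ppp1r15a ran from 212 to 231 CPM in dMye_DMSO, against 178 to 188 CPM in FF_DMSO, also without overlap (log2 fold change 0.25, SE 0.049, edgeR adjusted p = 0.00066). The gene that rose most with PCN in FF was thus lower there under DMSO, but both contrasts rest on the same FF_DMSO libraries. Ddit3 ran from 264 to 313 CPM in dMye_DMSO, against 225 to 260.2 CPM in FF_DMSO (log2 fold change 0.25, SE 0.068, edgeR adjusted p = 0.011). Its groups were adjacent but apart, and the edgeR call was lost without FF_DMSO 1 (adjusted p = 0.058) or FF_DMSO 3 (adjusted p = 0.11). Sesn2 ran from 107 to 132 CPM in dMye_DMSO, against 134 to 139 CPM in FF_DMSO (log2 fold change -0.18, SE 0.055, edgeR adjusted p = 0.021), and that call was lost without FF_DMSO 2 or FF_DMSO 3 (adjusted p = 0.062 and 0.084) and under upper-quartile scaling (adjusted p = 0.060). Ppp1r15b ran from 191 to 257 CPM in dMye_DMSO, against 253 to 264 CPM in FF_DMSO (log2 fold change -0.23, SE 0.062, edgeR adjusted p = 0.0098), with 1 dMye library inside the FF range. Atf4, Atf5, Trib3, Asns and Eif2ak3 had log2 fold changes between -0.09 and 0.11 and edgeR adjusted p of 0.12 or above.

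Under PCN, 6 of the 10 genes were lower in dMye than in FF macrophages, where 27.6% of all genes were called, 11.4% lower and 16.2% higher (edgeR). They were Ppp1r15a, Sesn2, Ppp1r15b, Atf4, Atf5 and Trib3. None of the 10 was called higher by edgeR, DESeq2 or limma-voom, or at an unadjusted p under 0.05. The median log2 fold change was -0.16 over the 10 genes and 0.0027 over all genes tested. All 6 dMye_PCN libraries lay below all 3 FF_PCN libraries for 5 of the 10 genes, against 7.58% of all genes. They lay above them for 0, against 19.1%, with 26.7% in either direction.

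Sesn2 ran from 114 to 134 CPM in dMye_PCN, against 147.8 to 159.7 CPM in FF_PCN (log2 fold change -0.31, SE 0.055, edgeR adjusted p = 0.00015). Ppp1r15a ran from 266 to 304 CPM in dMye_PCN, against 309.7 to 342 CPM in FF_PCN (log2 fold change -0.27, SE 0.048, edgeR adjusted p = 0.00022). Its order between the genotypes was thus the opposite of that under DMSO, and both calls held in each alternative run. Smaller differences were found for Atf5 (log2 fold change -0.16, edgeR adjusted p = 0.0054), Trib3 (-0.16, adjusted p = 0.014), Ppp1r15b (-0.19, adjusted p = 0.022) and Atf4 (-0.16, adjusted p = 0.035). Of the 6 genes Atf4 was the one whose groups overlapped, at 586 to 645 CPM in dMye_PCN, against 641 to 689 CPM in FF_PCN. Upper-quartile scaling left only Ppp1r15a and Sesn2 of the 6 past the threshold. Without FF_PCN 1 the edgeR calls of Trib3, Ppp1r15b and Atf4 were lost (adjusted p = 0.066, 0.069 and 0.10), that of Ppp1r15b also without FF_PCN 2 or 3 (adjusted p = 0.11 and 0.070), and that of Atf4 also without FF_PCN 3 or dMye_PCN 2, 4 or 6 (adjusted p between 0.058 and 0.072). Ddit3 was at 338 ± 23.4 CPM in dMye_PCN (SD, n = 6) and 336 ± 6.08 CPM in FF_PCN (SD, n = 3), with an edgeR log2 fold change of -0.04 (95% interval -0.18 to 0.10, adjusted p = 0.72). CPM is scaled to the library total alone and the fit also uses TMM scaling, so their directions can differ near 0. The FF groups enter this comparison and the PCN effects above, and the dMye groups likewise, so these contrasts share libraries.

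**Figure D3:**
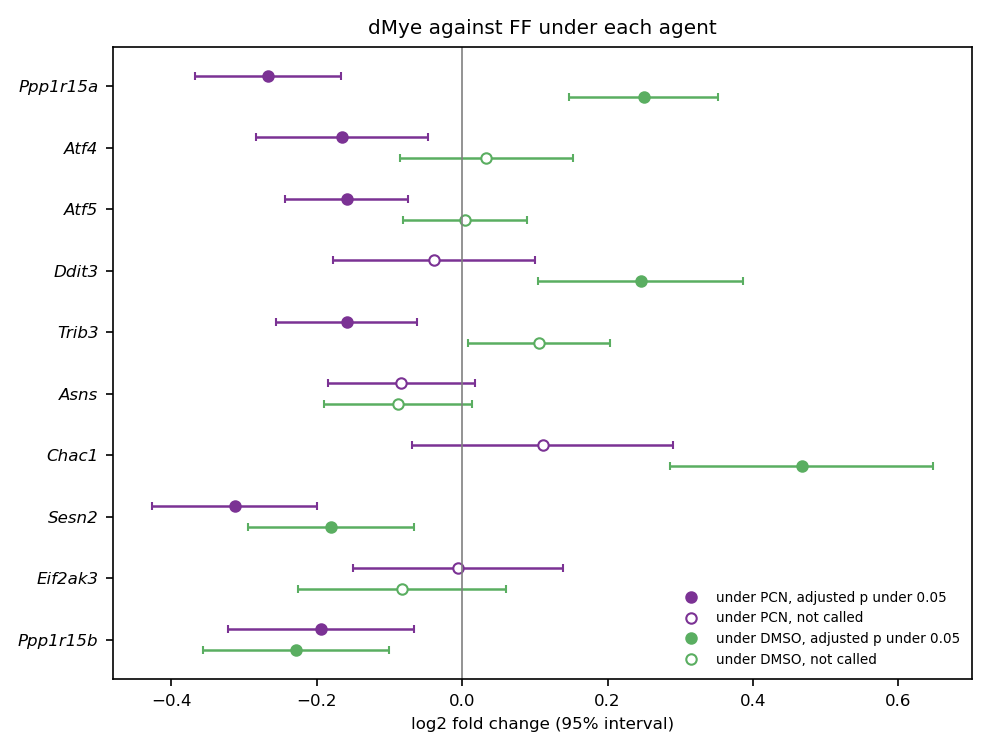
Log2 fold change of dMye against FF (horizontal axis) for the 10 genes under PCN (purple) and under DMSO (green), with 95% intervals from the edgeR fit and filled points for an adjusted p under 0.05. Ppp1r15a lies at -0.27 under PCN and at 0.25 under DMSO, while Sesn2 and Ppp1r15b lie below 0 under both agents.

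Other genes of the pathway were read from lists by role, and values after a ± sign are SDs over 6 dMye or 3 FF libraries. The 11 genes of the other eIF2 kinases, eIF2 and its exchange factor eIF2B had 0 members called for PCN in either genotype by edgeR, DESeq2 or limma-voom. In FF 1 was lower at an unadjusted p under 0.05 and 1 under upper-quartile scaling, and in dMye 0 met the unadjusted threshold. Over all genes, edgeR called 13.8% in FF and 2.08% in dMye, so the count of 0 in dMye is near that share. The list median of the log2 fold change was -0.0013 in dMye and -0.05 in FF. Eif2s3x, the X-linked gene of an eIF2 subunit, was the only member called between the genotypes, with 293 ± 10.6 CPM in dMye_DMSO and 202 ± 4.95 CPM in FF_DMSO (edgeR log2 fold change 0.51, adjusted p = 1.3e-08). Over all genes 21.8% were called under DMSO and 27.6% under PCN. Sex follows genotype in these libraries, so for this X-linked gene the 2 cannot be told apart.

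Of 22 other partners and targets of ATF4 and CHOP, PCN raised 10 and lowered 3 in FF, where 6.82% of all genes were called higher and 6.98% lower, with a median log2 fold change of 0.32. Gdf15, the gene of a stress cytokine, was at 196 ± 2.42 CPM in FF_PCN and 115 ± 3.82 CPM in FF_DMSO (log2 fold change 0.79, SE 0.056, edgeR adjusted p = 8.9e-09). Atf3, which encodes a repressor induced by ATF4, was at 685 ± 17.2 CPM in FF_PCN and 486 ± 13.1 CPM in FF_DMSO (0.52, SE 0.057, edgeR adjusted p = 2.4e-06). The fallers with the smallest p were Nfe2l2, which encodes NRF2 (-0.20, edgeR adjusted p = 0.0046), and Herpud1, a factor of protein disposal at the endoplasmic reticulum (-0.21, edgeR adjusted p = 0.015, and 0.057 without FF_DMSO 2). In dMye 3 of the 22 rose, against 0.94% of all genes called higher and 1.14% lower, with a list median of 0.01. That count was 5 in DESeq2 and 1 without dMye_DMSO 5 and 6 together. The genes were Atf3 (log2 fold change 0.20, edgeR adjusted p = 0.012, and 0.0504 without dMye_DMSO 5 and 6 together), Cebpg, which encodes a C/EBP partner of ATF4 (0.16, adjusted p = 0.012), and Ero1l, the gene of an oxidase that helps form disulfide bonds (0.16, adjusted p = 0.041), which is named here after its values were seen. The Ero1l call held in 3 of 18 fits without 1 library, those without dMye_DMSO 1 or 4 or dMye_PCN 5, and was lost in the other 15 (adjusted p up to 0.112). It was also lost under upper-quartile scaling (adjusted p = 0.072), with only the libraries compared (0.110) and without dMye_DMSO 5 and 6 together (0.144). edgeR and limma-voom called 0 of the 22 lower in dMye, with 1 lower at an unadjusted p under 0.05, in DESeq2 and in edgeR without dMye_DMSO 6.

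Interaction terms passed for 4 of these 22 genes, all of them negative, against 0.671% of all genes with a negative and 0.746% with a positive one. The count was 1 or 2 when any 1 FF library was left out and 7 in DESeq2. Gdf15 was at 157 ± 4.52 CPM in dMye_PCN and 141 ± 8.52 CPM in dMye_DMSO, and its interaction was -0.64 (SE 0.069, edgeR adjusted p = 5.2e-05). The others were Bbc3, which encodes the cell death protein PUMA (-0.42, edgeR adjusted p = 0.021), Vegfa, the gene of a vessel growth factor and also named after its values were seen (-0.33, adjusted p = 0.025), and Atf3 (-0.32, adjusted p = 0.023). The Bbc3 call was lost without any of FF_DMSO 1, 2, 3 or FF_PCN 1 (adjusted p up to 0.085). The Vegfa call was lost without any of the 6 FF libraries or dMye_DMSO 3 (adjusted p up to 0.129) and with no filter (adjusted p = 0.060). The Atf3 call was lost without any of FF_DMSO 1, FF_DMSO 3, FF_PCN 2 or FF_PCN 3 (adjusted p up to 0.096).

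Genes of amino acid supply moved both ways in FF, with 4 of 21 higher and 3 lower, against 6.82% and 6.98% of all genes, and a median log2 fold change of -0.03. The cystine importer genes rose, with Slc7a11 at 109 ± 3.73 CPM in FF_PCN and 75.0 ± 3.45 CPM in FF_DMSO (0.57, SE 0.086, edgeR adjusted p = 9.7e-05) and its partner Slc3a2 at 727 ± 11.1 CPM in FF_PCN and 588 ± 5.80 CPM in FF_DMSO (0.33, SE 0.052, edgeR adjusted p = 0.00014). The serine synthesis gene Psat1 fell to 67.2 ± 5.19 CPM in FF_PCN, against 94.1 ± 2.91 CPM in FF_DMSO (-0.46, SE 0.067, edgeR adjusted p = 5.2e-05), and Mthfd1l, of the mitochondrial folate cycle, fell by 0.32 on the log2 scale (edgeR adjusted p = 0.0049). In dMye, Slc7a11 was the 1 gene called of 21 (0.30, SE 0.062, edgeR adjusted p = 0.011), against 0.94% of all genes called higher. Psat1 was at 92.7 ± 5.59 CPM in dMye_PCN and 98.7 ± 4.09 CPM in dMye_DMSO, and its interaction was 0.37 (edgeR adjusted p = 0.025, and up to 0.082 without FF_DMSO 1, FF_DMSO 3 or FF_PCN 2). That of Slc3a2 was -0.26 (edgeR adjusted p = 0.042). This call was lost in 13 of 18 fits without 1 library, namely each of the 6 FF libraries, dMye_DMSO 2, 3 and 4, and dMye_PCN 1, 2, 4 and 6 (adjusted p up to 0.106). Of 18 aminoacyl-tRNA synthetase genes, which charge tRNAs and include ATF4 targets, edgeR called 1 for PCN in FF, Aars (0.26, adjusted p = 0.00046), against 13.8% of all genes. In dMye edgeR called 0 of the 18, against 2.08% of all genes, while 4 were higher at an unadjusted p under 0.05 and DESeq2 called 1.

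The other arms of the unfolded protein response moved both ways. In FF 4 of 24 genes rose and 4 fell, against 6.82% and 6.98% of all genes, with a median log2 fold change of 0.0091. The count of genes that rose was 0 without FF_DMSO 1, 1 without any 1 of the FF_PCN libraries or with no filter, and 2 without FF_DMSO 2 or 3 or under upper-quartile scaling. The count that fell was 1 without FF_DMSO 3, FF_PCN 1 or FF_PCN 2, and 2 without FF_DMSO 2. The sensor gene Atf6 was at 412 ± 21.2 CPM in FF_PCN and 331 ± 13.8 CPM in FF_DMSO (0.34, SE 0.081, edgeR adjusted p = 0.0070), a call lost without FF_DMSO 1 or FF_PCN 2 (adjusted p = 0.066 and 0.063). Its paralog Atf6b was at 0.16 (edgeR adjusted p = 0.018), and this call was lost without FF_DMSO 1 or 2 or any FF_PCN library (adjusted p up to 0.107), and under upper-quartile scaling or with no filter (adjusted p = 0.059 and 0.093). The folding enzyme genes Pdia3 and Pdia4 fell by 0.25 and 0.24 on the log2 scale (edgeR adjusted p = 0.0030 and 0.027), and Pdia4 was not called without FF_DMSO 2, FF_DMSO 3, FF_PCN 1 or FF_PCN 2 (adjusted p up to 0.078). Hspa5, the gene of the chaperone BiP, was at 401 ± 16.5 CPM in FF_PCN and 376 ± 13.3 CPM in FF_DMSO (edgeR log2 fold change 0.12, adjusted p = 0.23). Xbp1, the target of the sensor IRE1, was at 83.9 ± 2.69 CPM in FF_PCN and 99.4 ± 8.06 CPM in FF_DMSO (edgeR log2 fold change -0.22, adjusted p = 0.11, and 0.021 without dMye_DMSO 5). In dMye, Atf6 was the 1 gene called of 24, against 0.94% of all genes called higher (0.24, edgeR adjusted p = 0.029). The call was lost in 5 of 18 fits without 1 library, namely dMye_DMSO 2 or 3 or dMye_PCN 3, 4 or 6 (adjusted p up to 0.070). DESeq2 called 3 higher and 0 lower there, and edgeR 3 higher without dMye_PCN 5. Hspa5 was at 483 ± 26.5 CPM in dMye_PCN and 454 ± 17.6 CPM in dMye_DMSO (edgeR log2 fold change 0.09, adjusted p = 0.34), and Xbp1 at 97.0 ± 7.26 CPM in dMye_PCN and 106 ± 8.89 CPM in dMye_DMSO (-0.13, adjusted p = 0.33). The interaction passed for 0 genes of the eIF2, synthetase and unfolded protein lists in edgeR, DESeq2 and limma-voom, where edgeR called 1.42% of all genes. At an unadjusted p under 0.05 it was met by 0, 1 and 3 of their genes in that order.

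**Figure D4:**
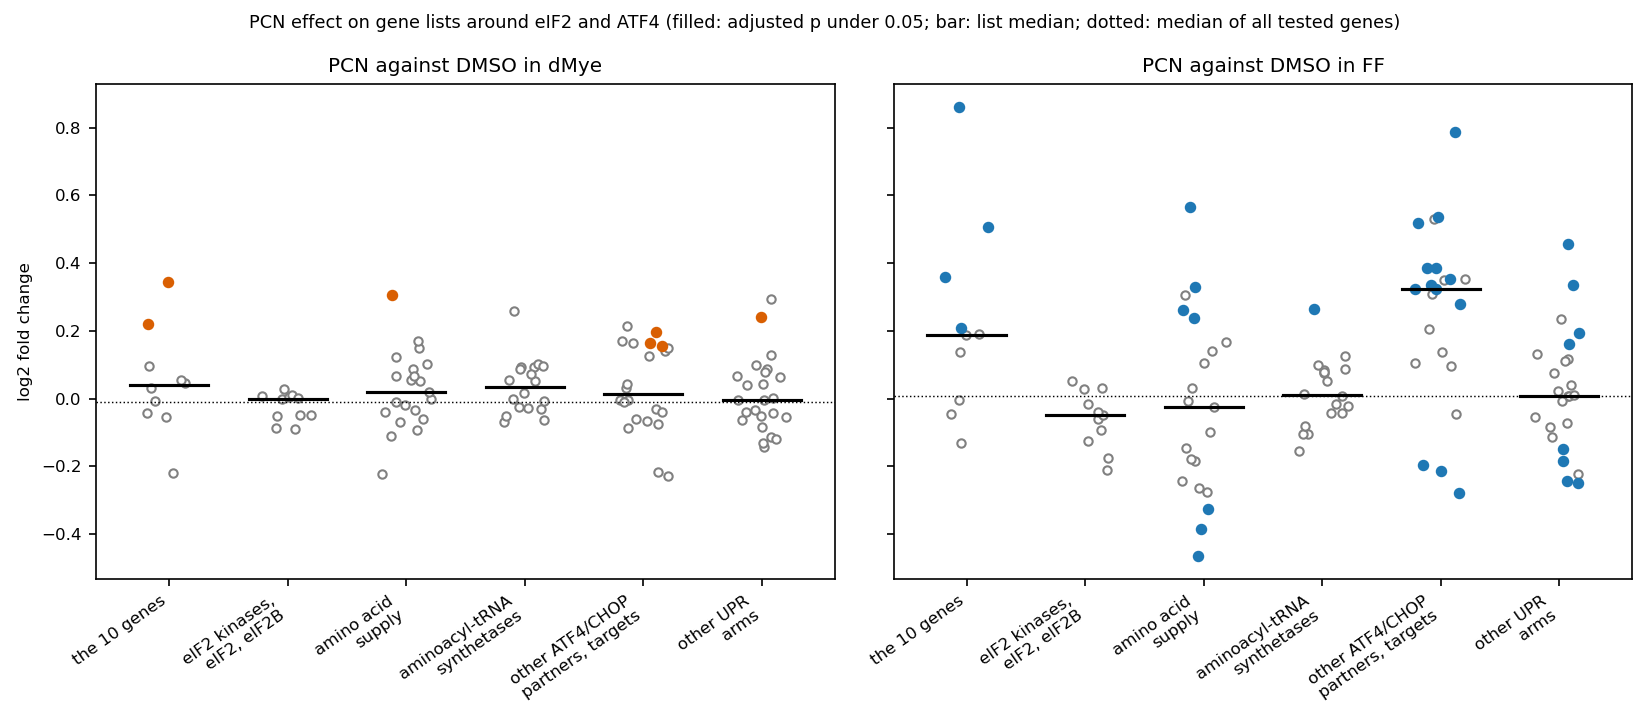
Log2 fold change of PCN against DMSO (vertical axis) for the tested genes of 6 lists in dMye (left) and FF (right), with filled points for an edgeR adjusted p under 0.05, bars for list medians and a dotted line for the median of all genes tested. The medians of the 10 genes and of the other ATF4 and CHOP partners and targets are 0.04 and 0.01 in dMye, and 0.19 and 0.32 in FF.

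Between the genotypes, the amino acid list was called higher in dMye for 7 of 21 genes and lower for 1 under DMSO, and higher for 12 and lower for 4 under PCN. Of all genes, 13.9% were higher and 7.85% lower under DMSO, and 16.2% higher and 11.4% lower under PCN. Cth, the gene of an enzyme that makes cysteine, was at 8.95 ± 0.986 CPM in dMye_PCN and 1.82 ± 0.270 CPM in FF_PCN, and at 8.21 ± 0.503 CPM in dMye_DMSO and 2.25 ± 0.692 CPM in FF_DMSO. Slc7a11 went the other way, with log2 fold changes of -0.73 under PCN and -0.47 under DMSO (edgeR adjusted p = 9.4e-08 and 6.2e-05). Of the 22 other partners and targets, 6 were higher and 9 lower in dMye under PCN, and 7 higher and 0 lower under DMSO, where 2 were lower at an unadjusted p under 0.05 and in DESeq2. Of the 24 unfolded protein response genes, 6 were higher and 2 lower in dMye under PCN, and 8 higher and 1 lower under DMSO. Without single libraries the 8 ran from 2 to 9, with 2, 3 and 4 without FF_DMSO 2, 1 and 3 in that order and 5 without dMye_DMSO 4. The 2 lower under PCN were 0 without FF_PCN 1, 2 or 3, under upper-quartile scaling or with no filter. Hspa5 was higher in dMye under both agents, by 0.22 with PCN and 0.25 with DMSO on the log2 scale (edgeR adjusted p = 0.0036 and 0.0015). The cell markers given above differ along the same contrast, and their part here was not tested.

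The tested genes whose TMM-scaled log2 CPM, centred within each genotype, most resembled that of Ppp1r15a over the 18 libraries were Rnf149, Btg1, Rhov, Mreg and Csrnp1. Pearson's r was 0.975, 0.972, 0.971, 0.971 and 0.970 in that order, as a description of points that share libraries. Csrnp1, for example, averaged 22.2 CPM in dMye_PCN and 17.3 CPM in dMye_DMSO, and 26.4 CPM in FF_PCN and 13.1 CPM in FF_DMSO. With values centred within each of the 4 groups instead, r was between 0.322 and 0.746. Among the 9 other stress response genes the nearest were Ddit3 with r of 0.936, ranked 36 of all tested genes, and Trib3 with 0.911, ranked 80. Atf5 stood at 0.799, Sesn2 at 0.602 and Atf4 at 0.557. Centred within each of the 4 groups, r was 0.767 for Ddit3, 0.436 for Trib3, 0.305 for Atf4, -0.101 for Atf5 and -0.225 for Sesn2. Within the FF libraries r was 0.972 for Atf4, and within the dMye libraries it was 0.083, each over both agents. Of the dMye libraries, dMye_DMSO 5 had the highest Atf4, at 695 CPM, and the lowest Ppp1r15a, at 212 CPM. The part of this library in the dMye value was not tested.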

How the data were processed

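RNA of 18 macrophage libraries was measured by sequencing. The authors deposited estimated counts per gene, and the submitters' processing notes name the build mm10. Not given in the sources used here are aligner, quantifier, annotation and strand setting. From them, counts were rounded to whole numbers, and CPM was taken over each library's total without TMM scaling. Overlap of libraries was judged on this CPM. Of 21831 genes, 3287 were at 0 in all libraries and 13409 passed edgeR's filterByExpr (minimum count 10), among them all 10 stress response genes. A quasi-likelihood fit in edgeR 4.0.16 (R 4.3.3) with TMM scaling and 1 mean per group covered all 18 libraries. It gave the PCN effect in each genotype, their difference, and dMye against FF under each agent. Each contrast was adjusted by Benjamini-Hochberg over all genes tested, a gene was called at an adjusted p under 0.05, and intervals are 95%. The biological coefficient of variation was 9.69%. Library totals ran from 21993687 to 30228032 counts, and the spread between libraries exceeded counting noise in every replicate pair (chi-square per gene 3.83 to 47.0). Groups came from the labels, and replicate numbers only name libraries. A further allele that all groups share is not reported here. The script was tested on simulated data.

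The log2 fold changes of the named genes and the counts of called genes, among the 10, in each pathway list and over all genes, were also computed with upper-quartile or RLE scaling, a stricter filter (1 CPM in 6 libraries) or none, DESeq2 1.42.0, limma-voom (limma 3.58.1), only the libraries compared, without dMye_DMSO 5 and 6 together, and without each library. For the genes other than the 10, and for counts in the lists and over all genes, part of these runs was added after seeing the data. The 10 genes and the lists were chosen with earlier results of these data known. All 10 genes are named, and so are the 5 genes most like Ppp1r15a. For the PCN effects and their difference, the 2 called genes of smallest p per list and direction are named. For dMye against FF, only some of the genes that this rule picks are named. Atf3, Hspa5 and Xbp1 are named whatever their p, and Ero1l and Vegfa were added after their values were seen. Promoters are from RefSeq (GRCm38.p6) and gene models and leaders from GENCODE M21, with the principal transcript by APPRIS preferred.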

Additional observations from a re-analysis of the deposited data

Results flagged for a closer look

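Library 5 of dMye_DMSO stood apart for Atf4, at 695 CPM. The next library of its group was at 617 CPM and the lowest at 589 CPM, so the gap took 0.731 of the group's range, above the 95% critical value of Dixon's test for 6 libraries. This was 1 of 20 sets of 6 libraries looked at, and chance marks about 1 in 20.

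The PCN effect differed between the genotypes (dMye minus FF, log2 scale, interaction term in edgeR, adjusted p over all genes tested) for Ppp1r15a by -0.52 (adjusted p = 0.00044) and for Trib3 by -0.26 (adjusted p = 0.047). Among the other pathway genes the difference was -0.64 for Gdf15 (adjusted p = 5.2e-05), -0.42 for Bbc3 (adjusted p = 0.021), -0.33 for Vegfa (adjusted p = 0.025), -0.32 for Atf3 (adjusted p = 0.023), -0.26 for Slc3a2 (adjusted p = 0.042) and 0.37 for Psat1 (adjusted p = 0.025). Ppp1r15a and Gdf15 kept their calls in each alternative run. The other 6 genes lost theirs in at least 1 fit without a single FF library.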

How the results depend on the processing

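Of the 10 genes, 4 were called for PCN in FF, with 4 to 6 without single libraries and 4 to 6 under the other alternatives. In dMye the count was 2, and it was 3 in DESeq2, which called Chac1 lower. It was 1 under upper-quartile scaling, with only the libraries compared and without dMye_DMSO 5 and 6 together (1 to 2 without single libraries). For the difference of the effects it was 2, and 1 under upper-quartile scaling, with no filter and in limma-voom (1 to 2 without single libraries). For dMye against FF it was 5 under DMSO (3 to 6 without single libraries, 3 without FF_DMSO 3) and 6 under PCN (3 to 6, with 3 without FF_PCN 1), and 2 under PCN with upper-quartile scaling. The cause of these moves was not tested.

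Signs turned only for log2 fold changes near 0 that were not called. For Atf4 with PCN in dMye it was 0.0019 with no filter and 0.0268 without dMye_DMSO 5 and 6 (-0.0269 to 0.0419 without single libraries). For Atf4 in dMye against FF under DMSO it was -0.0138 without dMye_DMSO 5 and 6 (-0.0291 to 0.0424). For Atf5 in the same contrast it was -0.0161 with RLE scaling, -0.0160 with no filter, -0.0017 with the stricter filter, -0.0159 in DESeq2, -0.0053 with only the libraries compared and -0.0044 without dMye_DMSO 5 and 6 (-0.0289 to 0.0062). Under PCN, dMye against FF was 0.0157 for Ddit3 and 0.0485 for Eif2ak3 with upper-quartile scaling, and for Eif2ak3 0.00093 with no filter and 0.0017 with only the libraries compared (-0.0550 to 0.0739). Without single libraries, Ppp1r15b ran from -0.0308 to 0.0024 in FF and from -0.0025 to 0.0667 in dMye, the difference from -0.0136 to 0.0433 for Asns and from -0.0544 to 0.0208 for Hspa5, and Xbp1 under DMSO from -0.0033 to 0.122.

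Over all genes, 279 were called for PCN in dMye, against 590 in DESeq2, 144 with only the libraries compared and 179 without dMye_DMSO 5 and 6 (137 to 371 without single libraries). The difference had 190 genes, against 407 in DESeq2 (42 to 261), and PCN in FF 1851 (1201 to 2175). Upper-quartile scaling gave a share of higher calls of 38.2% for PCN in FF, against 49.4%, of 31.2% in dMye, against 45.2%, and for dMye against FF of 76.0% under DMSO, against 64.0%, and 74.8% under PCN, against 58.8%. With no filter the share for the difference was 67.3%, against 52.6%. No paired analysis was possible because the libraries carry no replicate numbers shared between groups. With 3 FF libraries an arm, small effects are estimated loosely, and Chac1 and Eif2ak3 rest on the fewest counts of the 10 genes.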
